A study of Mus musculus with 4 samples.

Results

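The genes described here are the 5 NF-kB subunits (Nfkb1, Nfkb2, Rel, Rela and Relb), the 3 cytoplasmic inhibitors of the IkB type (Nfkbia, Nfkbib and Nfkbie), the nuclear IkB protein Nfkbiz and the NF-kB inhibitor Tnfaip3. They were taken by gene symbol from the deposited tables and are 10 of 22558 genes. RNA was measured in freshly sorted lung group 2 innate lymphoid cells (ILC2s) from mice aged 6 weeks. The 2 WT libraries came from wildtype C57BL/6 mice, and the 2 libraries whose labels give ICAM-1 KO (the KO-labelled libraries) came from mice on the same background with a constitutive knockout of Icam1 (B6.129S4-Icam1tm1Jcgr/J). Both groups had received 3 intranasal doses of 0.5 µg recombinant mouse IL-33, so that no library came from an unchallenged lung. Each library was a pool of 4 mice whose lungs were taken on day 4, and the cells were gated as CD45+ Lineage- ST2+ CD127+.

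NF-kB is a family of dimeric transcription factors. In resting cells the dimers are held in the cytoplasm by IkB proteins, and receptors such as the IL-33 receptor ST2 activate kinases that mark IkB for degradation and let the dimers enter the nucleus. There they bind kappaB motifs, also in the genes of their own inhibitors, so that Nfkbia and Tnfaip3 are textbook feedback genes. In ILC2s this route is known to link IL-33 to the release of type 2 cytokines.

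Icam1 (chr9:21015985-21028817, plus strand) is the gene that the knockout targets, and its RNA was not lower in the libraries that carry the label. WT replicates 1 and 2 gave 2579 and 2630 counts, and KO-labelled replicates 1 and 2 gave 2812 and 3453. The log2 fold change was 0.33, with a standard error of 0.108 (adjusted p = 0.0745). Counts over the whole gene do not show which exons were read, so that the label was not checked by them. An antisense gene that overlaps the exons of Icam1 had 0 counts in both WT libraries and 4.3 and 9.4 in the KO-labelled libraries. The paper reports, from flow cytometry of lung ILC2s, that the knockout mice lack the ICAM-1 protein. The libraries held 24796148 to 28782471 counts. All 17 ILC2 markers, Gata3 and the ST2 gene Il1rl1 among them, were detected in every library, with a summed normalized count of 9292 and 9863 in WT and of 7951 and 8113 in the KO-labelled libraries. Of 78 tested markers of other lung cells 48 were higher and 2 lower in the KO-labelled libraries, with a median log2 fold change of 1.09. Counts were tested with edgeR's quasi-likelihood test, and p-values were adjusted by the Benjamini-Hochberg method over 11711 genes. Since the libraries are pools, the p-values rest on the spread between pools and not between mice. With 2 pools per group, the test also draws on the spread of the other genes. In such bulk samples fewer cells of a type and less RNA per cell cannot be told apart.

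Of the 10 genes 1 rose and 1 fell at an adjusted p under 0.05, and the other 8 did not pass the test. Over all genes tested 13.8% passed, 8.8% with a rise and 4.97% with a fall, so that the share of members called was near the background. Rel, which encodes the subunit c-Rel, was 1.66-fold higher in the KO-labelled libraries (95% interval 1.4 to 1.97). Nfkbib, which encodes IkB-beta, was at 0.78 times its WT level (95% interval 0.668 to 0.911). The members' median log2 fold change was 0.05, beside 0.01 over all genes tested. The normalized counts of the groups did not overlap for 6 of the 10 genes, a share close to the 59.5% of all genes tested, and this count says nothing particular about NF-kB.

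**Figure D1:**
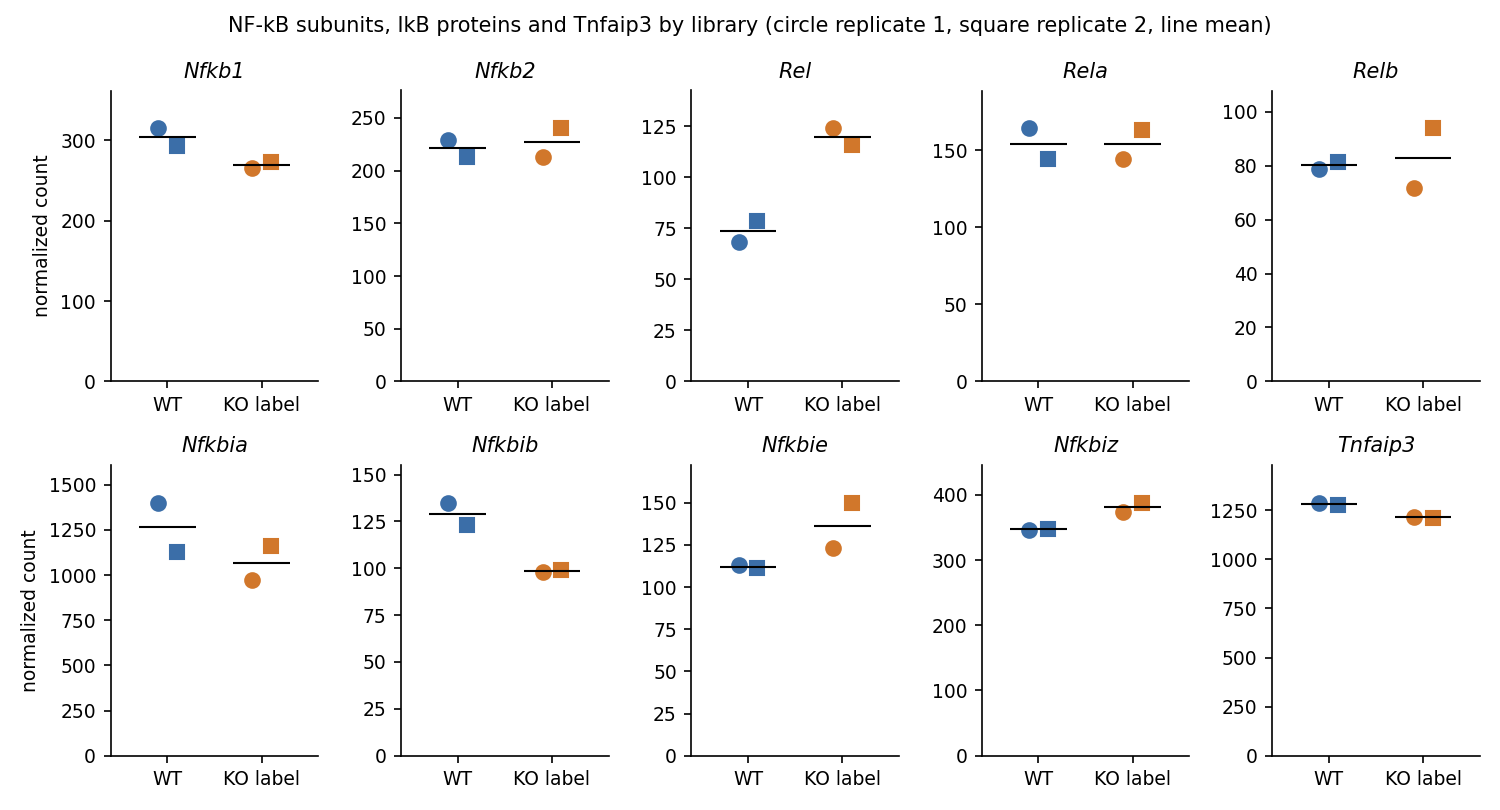
Normalized count (y axis, from 0, with its own scale in each panel) of the 10 genes in the 2 WT libraries (blue) and the 2 KO-labelled libraries (orange), with circles for replicate 1, squares for replicate 2 and lines for group means. Rel stands at 68.4 and 78.6 in WT and at 124 and 116 in the KO-labelled libraries, while the points of Nfkb2, Rela, Relb and Nfkbia overlap between the groups.

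Rel (chr11:23736847-23770970, minus strand) overlaps no other annotated gene. c-Rel carries a transactivation domain and is known mainly from B and T lymphocytes. Its normalized count, which is the count scaled to the upper quartile of its library, was 68.4 and 78.6 in the WT libraries. In the KO-labelled libraries it was 124 and 116, from 3562 and 3655 counts. Both values lay above both WT values, and the gap between the groups was wider than the spread within either group. The means were 73.5 ± 7.16 (SD, n = 2) and 120 ± 5.09 (SD, n = 2) (log2 fold change 0.73, standard error 0.109, 95% interval 0.49 to 0.98, adjusted p = 0.00418). Rel passed the threshold in each of the 7 alternative analyses that kept all 4 libraries, with an adjusted p of at most 0.0417. Over all 11 alternative analyses its log2 fold change was 0.64 to 0.84.

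Markers of several other cell types, lymphocytes with antigen receptors among them, moved in the same direction as Rel. Of 12 T cell markers 8 were higher and none was lower by this test, and their summed normalized count was 821 and 937 in WT and 1406 and 1659 in the KO-labelled libraries. Foxp3, which defines regulatory T cells, rose from 42.4 and 53.9 to 157 and 181, and the T cell receptor gene Trac from 58.8 and 78.7 to 183 and 225. The sort excluded cells with CD3ε, CD4, CD5 or TCRβ. Cd4 rose from 22.3 and 27.3 to 61.5 and 80.5 (adjusted p = 0.00143) and Cd5 from 25.6 and 27.7 to 67.8 and 85.3 (adjusted p = 0.000711). The genes of the CD3 chains did not share a direction. Cd3d rose from 19.1 and 37.7 to 71.3 and 85.9 (adjusted p = 0.00796). Cd3e stood at 30.8 and 50.7 in WT and at 37.5 and 52.2 in the KO-labelled libraries and did not pass (adjusted p = 0.69). Cd3g was lower in the KO-labelled libraries, at 81.1 and 107 beside 114 and 127 in WT, and did not pass either (adjusted p = 0.158). Of 8 B cell markers 5 were higher and none lower, and their summed normalized count was 1527 and 3777 in WT and 6399 and 9716 in the KO-labelled libraries. The immunoglobulin genes Ighm and Igkc made up most of this sum in every library, and Igkc itself did not pass (adjusted p = 0.0504). The sort also excluded CD45R, a B cell antigen. No marker of the T and B cell lists was at 0 in any library. All 10 endothelial markers were higher, with a summed normalized count of 161 and 165 in WT and of 416 and 438 in the KO-labelled libraries. Of 11 macrophage and monocyte markers 8 were higher (538 and 534 in WT, 917 and 1134 in the KO-labelled libraries), of 7 neutrophil markers 5 (73.7 and 80.4 in WT, 190 and 145) and of 10 lung epithelial markers 7 (453 and 220 in WT, 625 and 1465), and none of these 4 lists held a marker that was lower by the test. The remaining lists were less one-sided or changed less. Of 4 tested eosinophil markers 2 were higher and 2 lower, and of 4 dendritic cell markers 2 were higher. Of 7 mast cell and basophil markers 1 was higher, and of 5 fibroblast and smooth muscle markers none passed. The part of any of these cells in the Rel result was not tested.

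All but the last of the 250 bases before the start of Rel, 249 bases, are shown because Rel was the member with the smallest adjusted p and because this stretch held a match to the kappaB consensus. The sequence is from the RefSeq promoter table (GRCm38.p6), chr11:23770971-23771219, minus strand, upstream of the annotated gene, with the matching stretch in capitals.
Rel: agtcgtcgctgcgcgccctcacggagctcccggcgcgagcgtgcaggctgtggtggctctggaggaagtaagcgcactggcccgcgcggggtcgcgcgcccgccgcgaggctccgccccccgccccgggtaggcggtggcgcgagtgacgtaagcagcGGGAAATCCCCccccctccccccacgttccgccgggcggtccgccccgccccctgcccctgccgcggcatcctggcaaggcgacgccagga
The capitals span 11 bases, from 92 to 82 bases before the start, in which matches on both strands overlap.

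Rela (chr19:5637483-5648130, plus strand) encodes p65, the subunit of the most widespread NF-kB dimer. It stood at 164 and 144 in WT and at 144 and 163 in the KO-labelled libraries, so that the values of the groups interleaved. Its log2 fold change was 0.03 (95% interval -0.22 to 0.27, adjusted p = 0.894). Nfkb1 (chr3:135584655-135691547, minus strand) encodes the precursor from which p50 is cut. It stood at 315 and 293 in WT and at 266 and 273 in the KO-labelled libraries. The groups did not overlap, but the log2 fold change of -0.15 (95% interval -0.34 to 0.05) did not pass (adjusted p = 0.285).

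The subunits of the slower, non-canonical route did not pass either. Nfkb2 (chr19:46304737-46312090, plus strand), the gene of the p52 precursor, stood at 229 and 213 in WT and at 213 and 240 in the KO-labelled libraries. The log2 fold change was 0.07 (95% interval -0.16 to 0.29, adjusted p = 0.7). Its exons overlap those of Psd on the other strand, which had 158 to 324 counts beside 6150 to 7542 for Nfkb2. Relb (chr7:19606217-19629438, minus strand), the partner of p52, stood at 78.8 and 81.5 in WT and at 71.8 and 93.8 in the KO-labelled libraries. The replicates of the latter lay on either side of WT, and the log2 fold change was 0.08 (95% interval -0.24 to 0.39, adjusted p = 0.762). For all 4 of these subunits the intervals reached no further than 0.39 from 0 on the log2 scale, and none of them reached the estimate for Rel.

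**Figure D2:**
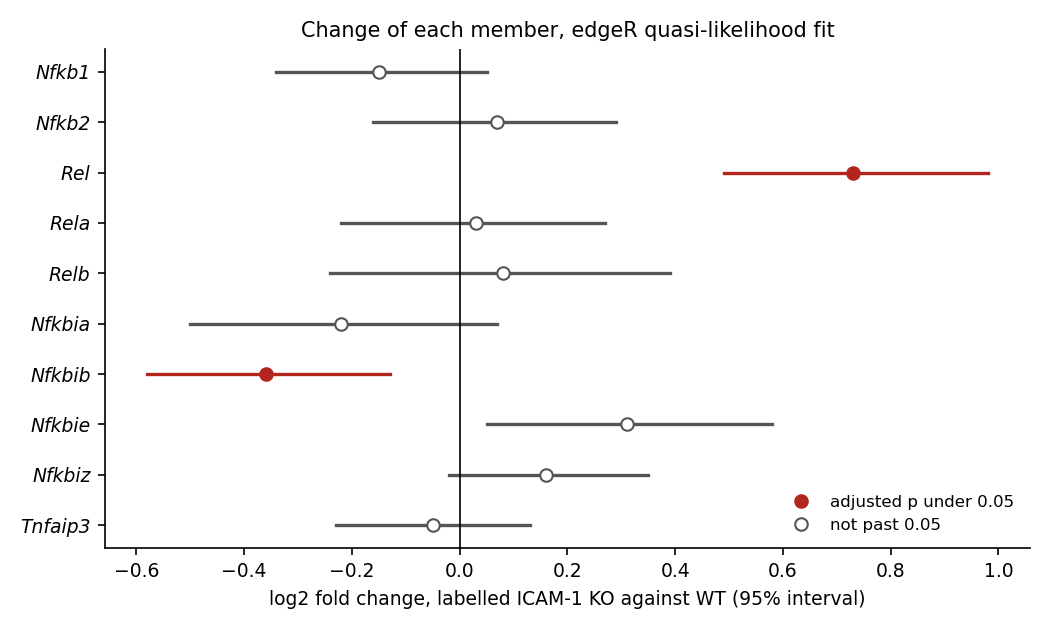
Log2 fold change of each gene in the KO-labelled libraries against WT (x axis), with 95% intervals from edgeR as horizontal lines and filled points for an adjusted p under 0.05. Rel at 0.73 and Nfkbib at -0.36 are filled, and the interval of Nfkbie, 0.05 to 0.58, lies above 0 without passing after adjustment.

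To compare subunits with each other, counts were divided by the length of the merged exons of each gene and scaled to a sum of 1000000 per library (TPM). On this scale Rel was the least abundant subunit in both groups, at 29.5 ± 2.3 TPM (SD, n = 2) in WT and 50.3 ± 4.07 TPM (SD, n = 2) in the KO-labelled libraries. Its share of the summed level of the 5 subunits was 5.77% and 7.06% in the WT libraries and 11% and 9.29% in the KO-labelled libraries. Rela held 31.2% to 33.5% and Nfkb2 30.9% to 31.5% over all 4 libraries. The share of Nfkb1 was 16.4% and 16.3% in WT and 14.7% and 13.5% in the KO-labelled libraries, and that of Relb lay between 12.3% and 14.4%. With merged exons the shares of Rel and Nfkb1 were apart between the groups, in opposite directions, and those of the other 3 overlapped. These shares were not tested. They depend on the length used, since Nfkb1 has 12061 bases of merged exons but 4149 in its longest transcript. With the longest transcript Nfkb1 held 33% in WT and 29.3% in the KO-labelled libraries, and Rel 4.46% and 7.27%. The share of Nfkb2 was then also apart, at 26% and 25.8% in WT and at 26.3% and 26.9% in the KO-labelled libraries.

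**Figure D3:**
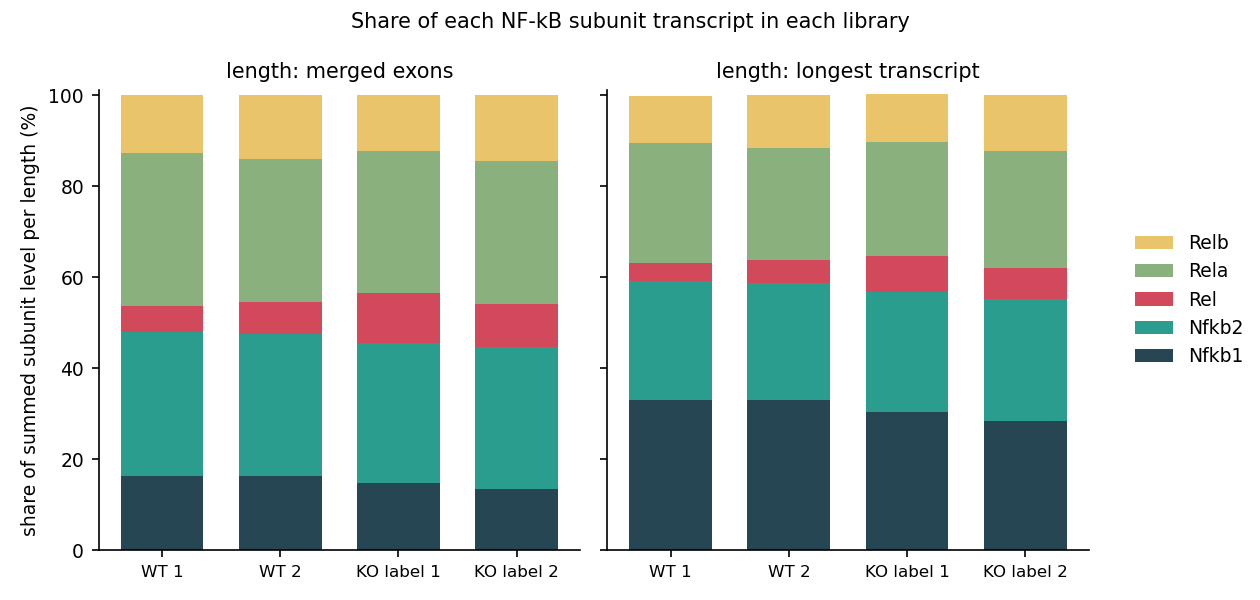
Share of each subunit in the summed subunit level per length (y axis, %) in each library (x axis), with merged exon length on the left and the length of the longest transcript on the right. The Rel segment is wider in both KO-labelled libraries in either panel, and the choice of length moves Nfkb1 most.

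Of the cytoplasmic inhibitors Nfkbib was the only gene that passed the test. Nfkbib (chr7:28758251-28767512, minus strand) encodes IkB-beta, an inhibitor that is resynthesized more slowly than IkB-alpha. It stood at 135 and 123 in WT and at 98 and 98.9 in the KO-labelled libraries. Both of the latter lay below both WT values and were nearly equal to each other. The means were 129 ± 8.43 (SD, n = 2) and 98.5 ± 0.634 (SD, n = 2), and the log2 fold change was -0.36 (95% interval -0.58 to -0.13, standard error 0.0987, adjusted p = 0.044). This call was near the threshold. It was lost with no filter on low counts (adjusted p = 0.0954) and with edgeR's filterByExpr (adjusted p = 0.051). With any of the 4 libraries left out, which leaves 1 library in a group, the log2 fold change was -0.42 to -0.29. Exons of Nfkbib also overlap those of Sirt2 on the other strand, whose counts were 2786 and 3080 in WT against 2385 and 2489 in the KO-labelled libraries. Whether the counting used strand is not given in the sources used here, and Sirt2 itself did not pass (log2 fold change -0.2, adjusted p = 0.223).

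Nfkbia (chr12:55489410-55492647, minus strand) encodes IkB-alpha, the inhibitor that NF-kB induces most rapidly. It stood at 1401 and 1127 in WT and at 971 and 1161 in the KO-labelled libraries. The WT libraries differed from each other by more than the group means did, and the log2 fold change of -0.22 (95% interval -0.5 to 0.07) did not pass (adjusted p = 0.281). Nfkbie (chr17:45555703-45563169, plus strand) encodes IkB-epsilon, known as a later feedback inhibitor that also acts on c-Rel dimers. It stood at 113 and 111 in WT and at 123 and 150 in the KO-labelled libraries. Both of the latter lay above WT but far from each other. The log2 fold change was 0.31 (95% interval 0.05 to 0.58, adjusted p = 0.108). Without ICAM-1 KO replicate 1 it was 0.46, and without replicate 2 it was 0.15, each with 1 library left in the group. Thus the inhibitors did not share a direction, with 1 estimate above 0 and 2 below.

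The remaining members act at other points of the route. Nfkbiz (chr16:55811375-55838899, minus strand) encodes IkB-zeta, a nuclear protein that binds p50 and is needed for a subset of NF-kB target genes. It stood at 346 and 348 in WT and at 374 and 388 in the KO-labelled libraries. The groups did not overlap, and the log2 fold change was 0.16 (95% interval -0.02 to 0.35, adjusted p = 0.219). Tnfaip3 (chr10:19000910-19015657, minus strand) encodes A20, a ubiquitin-editing enzyme that shuts off signalling upstream of the IkB kinases. It stood at 1289 and 1276 in WT and at 1217 and 1210 in the KO-labelled libraries, again without overlap. Its log2 fold change was -0.05 (95% interval -0.23 to 0.13, adjusted p = 0.702).

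Per length, Nfkbia, Tnfaip3 and Nfkbiz were the most abundant members. Nfkbia led at 2360 ± 407 TPM (SD, n = 2) in WT and 2066 ± 182 TPM (SD, n = 2) in the KO-labelled libraries, above 99.6% of all genes tested in both groups. Tnfaip3 followed at 533 and 526 TPM (group means, WT first) and Nfkbiz at 207 and 237 TPM. In WT, Nfkbib at 178 TPM, Rela at 150 TPM, Nfkb2 at 145 TPM, Nfkbie at 110 TPM, Nfkb1 at 75.7 TPM, Relb at 61.9 TPM and Rel at 29.5 TPM came next. In that order only Rela and Nfkb2 overlapped between neighbours. In the KO-labelled libraries, Rela (156 TPM) and Nfkb2 (155 TPM) overlapped, as did Nfkbib (142 TPM) and Nfkbie (140 TPM), and Nfkb1 (69.9 TPM) and Relb (66.4 TPM). Rel was last in both groups and moved from above 60.9% to above 72.8% of the genes tested. With the length of the longest transcript Nfkb1 came just after Nfkbiz, at 167 TPM in WT and 157 TPM in the KO-labelled libraries. The summed level of the 3 cytoplasmic inhibitors was 6.1 and 5.32 times that of the 5 subunits in WT and 4.57 and 4.86 times in the KO-labelled libraries. The groups did not overlap in this ratio, which was not tested and which Nfkbia dominates.

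Promoters were compared because several of these genes are known NF-kB targets. The RefSeq table (GRCm38.p6) held 7 of the 10 genes, all but Nfkb1, Relb and Nfkbiz, and the 250 bases before each start were searched on both strands for the 10-base kappaB consensus, with overlapping matches counted as 1 site. A site was found before the outermost start of 5 of the 7 genes, Nfkb2, Rel, Nfkbia, Nfkbie and Tnfaip3, and none before Rela or Nfkbib. Of all 27025 genes with a promoter there 8.23% held a match, and of all 32851 promoters 7.25%. The windows of the 4 genes other than Rel are printed on the strand of the gene, with 9 bases on each side where the window allows and with the match in capitals, to show how the sites vary.
Nfkbia: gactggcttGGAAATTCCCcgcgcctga
Nfkbie: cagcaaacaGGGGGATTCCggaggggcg
Nfkb2, outer site: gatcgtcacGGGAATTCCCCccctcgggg
Nfkb2, inner site: gggccgaaaGGGGCTTTCCc
Tnfaip3, outer site: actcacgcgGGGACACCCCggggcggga
Tnfaip3, inner site: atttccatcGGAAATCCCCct
The Nfkbia window is chr12:55492658-55492685 (minus strand) and begins its match 29 bases before the start. That of Nfkbie is chr17:45555585-45555612 (plus strand), with the match 106 bases before the start, and both windows lie upstream of the annotated genes. The Nfkb2 windows, chr19:46304689-46304717 and chr19:46304717-46304736 (plus strand), lie upstream of the deposited coordinates of Nfkb2 but, in GENCODE M21, within exon 1 of a longer transcript (46304320 to 46304820), with matches beginning 39 and 11 bases before the start. The Tnfaip3 windows, chr10:19015517-19015544 and chr10:19015411-19015431 (minus strand), lie in an intron of a longer transcript in GENCODE M21, with matches beginning 125 and 12 bases before the start. A match in letters is not evidence of binding. Among the genes with a site Rel rose and the other 4 did not pass, and Nfkbib, which fell, had none in this window. The RefSeq promoter of Nfkbib, chr7:28766595-28766894 (minus strand), lies wholly inside the deposited gene, which begins at 28767512 on that strand. The bases before the deposited start of Nfkbib were therefore not searched.

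**Figure D4:**
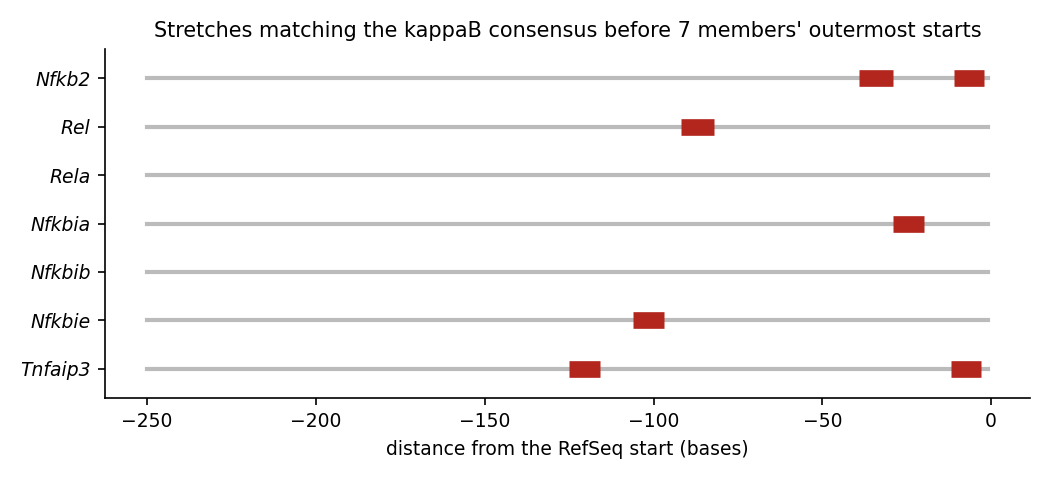
Stretches that match the kappaB consensus on either strand (red) in the 250 bases before the outermost RefSeq start (x axis, distance in bases) of the 7 genes in the promoter table. Nfkb2 and Tnfaip3 have 2 sites each, Rel, Nfkbia and Nfkbie 1 each, and Rela and Nfkbib none.

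The other pathway genes examined were 66 tested genes outside these 10, of which 11 were higher and 6 lower (8.8% and 4.97% of all genes tested), with a median log2 fold change of 0.12 beside 0.01 over all genes tested. These lists, too, were chosen with earlier results of these data known. The count of called genes over these lists was 5 without WT replicate 1 and 7 without WT replicate 2. Of the 6 genes of the IkB kinase complexes Ikbke alone passed. Its log2 fold change was 0.53 (adjusted p = 0.045), that of Ikbkb, the main kinase of IkB-alpha, was 0.25 (adjusted p = 0.0861), and the median was 0.23. Of the 12 genes from the IL-33 receptor to the kinase TAK1, Irak2 rose by 0.54 on the log2 scale (adjusted p = 0.0198) and none passed with a fall. Il1rl1, which encodes ST2 and thus the antigen used in the sort, was the most abundant of the 12. It stood at 626 and 728 in WT and 774 and 760 in the KO-labelled libraries (log2 fold change 0.21, adjusted p = 0.173). Myd88 was lower in the KO-labelled libraries, at 69.8 and 67.5 beside 86.8 and 89.3 in WT (log2 fold change -0.33, adjusted p = 0.0634). With DESeq2 and with limma Myd88 was called lower. The other family members of the IkB type were Bcl3, a nuclear partner of p50 and p52, and Nfkbid. Bcl3 fell from 106 and 96.6 to 62.6 and 73 (log2 fold change -0.55, adjusted p = 0.019), and Nfkbid had a log2 fold change of 0.34 (adjusted p = 0.117). The single call in each of these 3 lists was lost without WT replicate 1, without WT replicate 2 and without 1 of the KO-labelled libraries. The nuclear IkB proteins Bcl3, Nfkbid and Nfkbiz therefore had estimates on both sides of 0.

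Among 16 genes listed as other negative regulators 3 rose and none fell, beside 8.8% and 4.97% of all genes tested. Their median log2 fold change was 0.1. The count was 0 without WT replicate 1 or WT replicate 2, with no filter or with filterByExpr, and 1 without either of the KO-labelled libraries. The 3 genes were the deubiquitinase Cyld (log2 fold change 0.43, adjusted p = 0.0319), the ubiquitin ligase Peli1 (0.42, adjusted p = 0.0354) and N4bp1 (0.62, adjusted p = 0.0376). Tax1bp1, an adaptor of A20, was the most abundant of those that did not pass, with a log2 fold change of 0.03 (adjusted p = 0.826). The list also held Sharpin, Rbck1 and Rnf31, the subunits of the linear ubiquitin ligase complex, which is known to activate NF-kB. Their log2 fold changes were -0.1, -0.17 and -0.16, and none passed (adjusted p = 0.615, 0.265 and 0.585). The median was not recomputed without them.

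Of 30 tested NF-kB target genes outside the members 6 rose and 5 fell, beside 8.8% and 4.97% of all genes tested, with a median of 0.06. This list was chosen with earlier results of these data known, so that its counts are no independent comparison with all genes. Without WT replicate 1 the counts were 1 and 4, without WT replicate 2 they were 5 and 2, and with no filter 1 and 2, so that the balance of directions turned on single libraries. Cd83, which encodes a surface protein, rose from 200 and 200 in WT to 291 and 340 in the KO-labelled libraries (log2 fold change 0.69, adjusted p = 0.00417). Il1rn (0.99, adjusted p = 0.0198), Tnfrsf4 (0.95, adjusted p = 0.0301), Tnfrsf9 (1.03, adjusted p = 0.0413) and Ier3 (0.49, adjusted p = 0.0428) rose too. The last was Bcl2a1b, an inhibitor of cell death (1.07, adjusted p = 0.00761). Bcl2a1b belongs to a family of near-identical copies, so that its reads can be split among them. The genes that fell were the chemokines Cxcl2 (log2 fold change -0.67, adjusted p = 0.00274) and Cxcl3 (-0.81, adjusted p = 0.0238), the cytokines Il6 (-0.76, adjusted p = 0.0307) and Csf2 (-0.57, adjusted p = 0.0352), and Il2ra, which encodes CD25 (-0.51, adjusted p = 0.0133). Il2ra is also on the ILC2 list, of whose 17 genes 6 were lower and 2 higher. Many markers of other cell types were higher in the KO-labelled libraries. The part of these cells in the results for the target genes and other pathway genes was not tested. Of the called genes named among the other pathway genes, Cd83 and Cxcl2 passed in each of the 11 alternative analyses, and the others lost their call in at least 1.

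**Figure D5:**
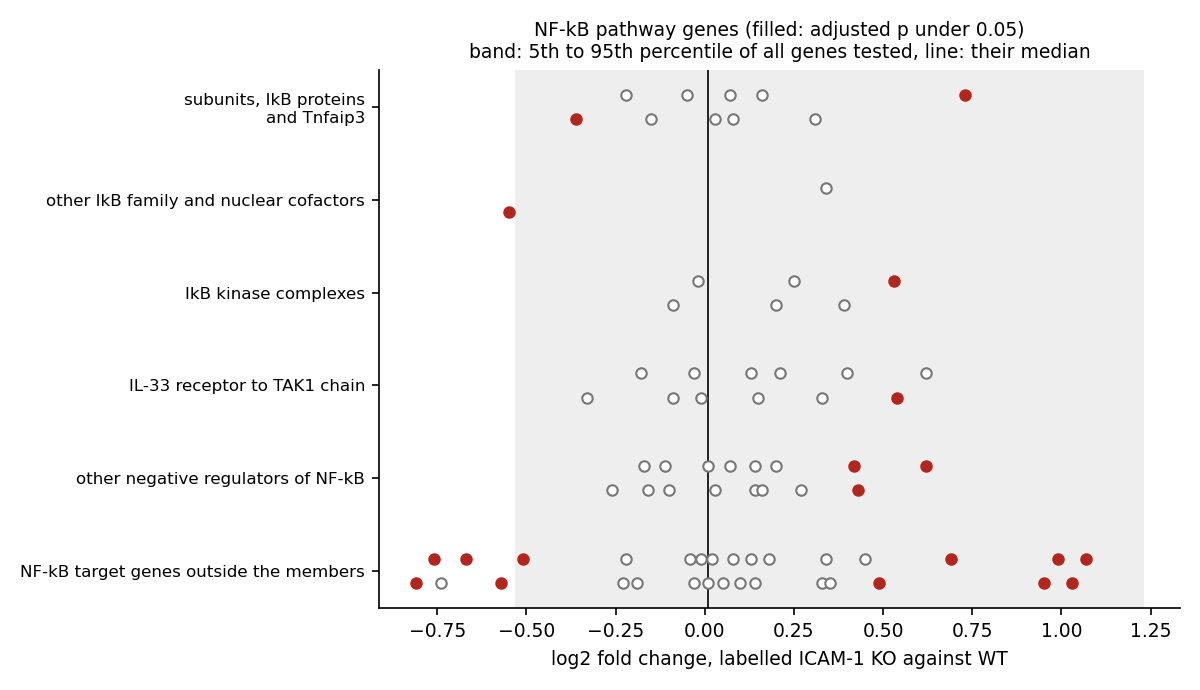
Log2 fold change (x axis) of every tested gene of the 10 members and of the other pathway lists (y axis), with filled points for an adjusted p under 0.05, a grey band from the 5th to the 95th percentile of all genes tested and a line at their median of 0.01. Among the target genes 6 filled points lie to the right of the line and 5 to the left, and most points of all lists lie within the band.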

How the data were processed

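RNA of the sorted ILC2s was turned into cDNA with a SMARTer kit for low input. The authors aligned the reads to mm10 with STAR and used Partek to estimate expected counts, which were deposited without normalization for 22558 genes. The authors also deposited an upper quartile normalized signal for 18324 genes, whose values equal the library's factor times the count after adding 1. It is called the normalized count here.

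Expected counts were rounded and tested with edgeR 4.0.16 in R 4.3.3 (glmQLFit with legacy set to FALSE, upper quartile factors, no covariate), WT against ICAM-1 KO, after the filter of the study's methods (mean normalized count of at least 1 and sum of at least 10), which left 11711 genes. The GSA method of the study was not run. Intervals are at 95%. Coordinates are those of the deposited tables (mm10, GRCm38), less 1 base at the end to fit GENCODE. Exon lengths are from GENCODE M21 for 22377 genes, while the study counted on release M20, and promoters from the RefSeq table, with 7 of 10 members matched. Depth was 24796148 to 28782471 counts per library, and as there were no molecular identifiers, amplified copies count as separate reads. No table holds columns of other samples.

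The members and gene lists were chosen with earlier results of these data known. A further list of upstream genes is not reported here and is left out of all counts over the pathway lists. Named genes are the 10 members, Icam1, up to 4 called genes of each pathway list by smallest adjusted p, and the most abundant gene that did not pass where fewer than 4 were called. Cxcl3, Il6, Csf2, Il1rn, Tnfrsf4, Tnfrsf9, Ier3, Myd88, Sirt2, Sharpin, Rbck1, Rnf31 and the Bcl2a1 copies were named after their values were seen. So were the T cell markers Foxp3, Trac, Cd3d, Cd3e, Cd3g, Cd4 and Cd5 and the B cell markers Ighm and Igkc. Exons of Nfkb2, Nfkbib, Bcl3, Ikbke, Irak2, Myd88, Tax1bp1, Rnf31, Bcl2a1b, Csf2, Foxp3, Cd3e and Icam1 overlap another gene. Without strand their reads cannot be told apart, and for Rnf31, Bcl2a1b and Foxp3 an overlapping gene lies on the same strand. Alternatives were TMM factors, DESeq2 1.42.0, no filter, filterByExpr, the older quasi-likelihood form, limma 3.58.1 on the log2 of the normalized count plus 1, a replicate block and leaving out each library. For the shares they were the longest transcript and the authors' normalized counts. Leaving out a library left 1 library in its group, so that the spread came from the other group alone. A call gained or lost in such a run is therefore a weak guide.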

Additional observations from a re-analysis of the deposited data

How the results depend on the processing

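Of the 10 genes 2 were called, and this count was 2 with TMM factors, DESeq2, the older quasi-likelihood form and limma, and 1 with no filter or with filterByExpr. It was 1 to 2 with a library left out. The count over all genes was 535 with no filter and 681 to 1305 with a library left out, and between 1360 and 2191 otherwise. Over the other pathway lists the count of 17 became 3 with no filter, 10 with filterByExpr and 5 to 13 with a library left out. Near-0 estimates turned sign: Rela to -0.02 with no filter, -0.0037 with filterByExpr and between -0.07 and 0.12 with a library left out, Nfkb2 to between -0.03 and 0.16, Relb to between -0.14 and 0.26, and Tax1bp1 to -0.01 with no filter. The cause was not tested. With the longest transcript the share of Rel was 4.46% in WT and 7.27% in the KO-labelled libraries.

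Replicate numbers 1 and 2 occur in both groups, but nothing ties equal numbers to a shared origin. The deviations of equally numbered libraries from their group means correlated at -0.0582. With the replicate number as a block 2 of the 10 genes were called (Rel, adjusted p = 0.00343, and Nfkbib, adjusted p = 0.0493), 15 over the other pathway lists and 1715 over all genes.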

Other observations

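The near-identical copies of Bcl2a1, whose protein protects NF-kB-activated cells from death, did not have like values. These genes were looked at after the data had been seen. Bcl2a1b stood at 43.1 and 57.6 normalized counts in WT and at 88 and 120 in the KO-labelled libraries. Bcl2a1d stood at 111 and 145 in WT and at 109 and 136 in the KO-labelled libraries (log2 fold change -0.04, adjusted p = 0.899 from edgeR). Bcl2a1a was low, at 2.25 and 3.69 in WT and 5.43 and 7.31 in the KO-labelled libraries (log2 fold change 1.14, adjusted p = 0.084). How reads were split among these copies was not tested.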
